A study of Mus musculus with 2 samples.

Results

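The stretch chr13:21300001-23900000 of the mouse genome (build mm8) holds the largest cluster of replication-dependent histone genes, known as Hist1. Its members were chosen by position alone, as every deposited 200 bp window and every aligned read inside those bounds: 13000 of 12850450 windows of 200 bp. The Lsh-/- library listed reads in 2387 of them and the Lsh+/+ library in 2211. The study set trimethylation of lysine 4 on histone H3 (H3K4me3), a nucleosome mark found at active and poised promoters, in an Lsh-/- line of mouse embryonic fibroblasts (MEF) against the same mark in an Lsh+/+ MEF line. Both lines were grown in serum-containing medium with no further treatment in the labels. Lsh, also called Hells, is a remodeller of the SNF2 family needed for normal DNA methylation, and Lsh-/- cells lack it. Chromatin was cut with micrococcal nuclease to mostly single nucleosomes before precipitation with an antibody against the mark. Each line gave 1 library and no input library was used here, so no genotype test can be made: each ratio below describes 2 libraries, and a difference between the lines unrelated to Lsh cannot be told apart from one tied to it. The sources used here do not give how the lines were derived from embryos. In a bulk library, more copies of a locus that carry the mark cannot be told apart from more mark per copy.

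Replication-dependent histone genes supply the core histones H2A, H2B, H3 and H4 and the linker histone H1 when DNA is copied. They are transcribed in S phase, and most of their mRNAs end in a stem-loop bound by Slbp instead of a poly(A) tail. The coactivator Npat, switched on by cyclin E with Cdk2, gathers with the processing factors at the clusters in a nuclear body. Many of the coding sequences are close to identical, so a short read from inside a gene often has several matching places, while the promoters differ more from each other.

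Histone promoters are recognised by short elements that differ by class. NF-Y binds CCAAT, Pou2f1 (Oct-1) binds the octamer of H2B promoters, H1 promoters carry the AAACACA box, and Hinfp binds an element of H4 promoters that contains GGTCC. The 120 bases before the start are printed for 6 promoters that the results turn on, from RefSeq on GRCm38.p6, in gene direction. They include the H4 promoter called higher in Lsh-/- (H4c12), the H4 promoter placed by most reads of its class with H4c11 (H4c8), and members of the other classes. Capitals mark the TATAAA box and the CCAAT box in every class, the H1 box in H1, the octamer letters ATTTGCA in H2A and H2B, and the Hinfp element letters GGTCC in H4. Both strands were searched, so a CCAAT box on the other strand reads ATTGG, and GGTCC reads GGACC. The places are chr13:21750554-21750673 (minus strand) for H4c12, chr13:23530924-23531043 (plus strand) for H4c8, chr13:21780626-21780745 (minus strand) for H1f5, chr13:23738687-23738806 (plus strand) for H1f2, chr13:23585971-23586090 (minus strand) for the downstream start of H2bc6, and chr13:21753913-21754032 (minus strand) for H2ac15.
H4c12: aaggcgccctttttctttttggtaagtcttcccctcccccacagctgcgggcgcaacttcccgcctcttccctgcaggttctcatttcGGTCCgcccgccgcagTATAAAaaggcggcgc
H4c8: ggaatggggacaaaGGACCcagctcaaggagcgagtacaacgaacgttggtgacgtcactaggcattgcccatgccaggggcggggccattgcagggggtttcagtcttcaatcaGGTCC
H1f5: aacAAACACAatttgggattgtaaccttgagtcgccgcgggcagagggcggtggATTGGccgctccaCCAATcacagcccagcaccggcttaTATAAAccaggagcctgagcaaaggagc
H1f2: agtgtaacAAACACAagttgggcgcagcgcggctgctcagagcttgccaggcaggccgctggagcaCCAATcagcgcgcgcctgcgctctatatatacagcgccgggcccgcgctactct
H2bc6: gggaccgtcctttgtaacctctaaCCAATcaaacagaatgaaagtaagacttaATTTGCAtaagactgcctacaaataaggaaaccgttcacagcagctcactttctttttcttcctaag
H2ac15: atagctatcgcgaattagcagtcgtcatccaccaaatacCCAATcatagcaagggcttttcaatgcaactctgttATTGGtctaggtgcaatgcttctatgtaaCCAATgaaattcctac

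Motif letters were counted in the 250 bases before each start, on both strands, in 52 Hist1 promoters and in all 32851 promoters of the RefSeq table. CCAAT was found in 84.6% of Hist1 promoters, against 33.8% of all promoters. It was in all 6 H1, 13 H2A, 15 H2B and 7 H3 promoters of the table, and in 3 of 11 H4 promoters. GGTCC was found in 10 of 11 H4 promoters, while over all Hist1 classes its share of 40.4% lay near the 39.8% of all promoters. ATTTGCA was found in 5 of 13 H2A and 6 of 15 H2B promoters and in none of the H1, H3 and H4 promoters, against 3.56% of all promoters. AAACACA was found in 5 of 6 H1 promoters, against 6.25% of all promoters. TATAAA was found in 26 of 52 Hist1 promoters, against 12.4% of all promoters. The Hist1 promoters had a median GC content of 44.6%, against 52.4% over all promoters, and a median observed over expected CpG of 0.75, against 0.37. A match is a description of letters and was not tested as a binding site.

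The deposited reads lie on mm8 and the promoters on GRCm38.p6, so the promoters were placed on the deposited positions by the reads themselves. A start was placed when at least 2 distinct 25-base reads matched the promoter exactly, with words found once in the promoter table, and at least 80% of the matching reads gave the same start. For H4c8, an example is the Lsh-/- read ttggctcaccaaagatctcctgtct, at chr13:23538283-23538307 on mm8, whose bases lie at -226 to -202 relative to the start. This put 15 starts of 14 Hist1 genes in the stretch, and 13 more genes were put there by 1 read each. Of 56 genes with a Hist1h name, 51 had a promoter in the table. Another 23 were not placed, among them the testis-expressed H1f6 (H1t) and H2ac1. In 6 of those 23 promoters fewer than 100 of 276 words were found once: H2ac23, H2bc23, H4c17, H4c18, H2ac24 and Hist1h2br. H3c7, H3c1, H2ac14, H2bc4 and H2af-ps2 had no promoter in the table. The testis gene H2bc1 (TH2B) was placed, by 1 read, beyond the end of the stretch, with 2 reads within 1 kb in Lsh-/- and 2 in Lsh+/+. All 29 placed Hist1 starts had the strand that RefSeq gives and kept 1 common spacing to it. Because a start is placed by reads of these libraries, unmarked promoters are less likely to be placed, and 82.7% of all 13242 starts placed in the genome were marked in each library.

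The stretch took a larger share of the Lsh-/- library. It held 4880 distinct reads in Lsh-/- and 3154 in Lsh+/+, of 2790389 and 2471782 distinct reads in the whole libraries. That is 0.175% of the Lsh-/- reads (95% Clopper-Pearson interval 0.170 to 0.180) and 0.128% of the Lsh+/+ reads (0.123 to 0.132), a ratio of shares of 1.37 (1.31 to 1.43). By the scale of marked windows used below for all other ratios, it was 1.09 (1.04 to 1.14). Of the reads on chromosome 13, 4.16% in Lsh-/- and 3.06% in Lsh+/+ fell here. Every interval here and below holds counting error alone, and reads amplified without molecular tags are not separate molecules. Reads repeating a position and strand made up 20.8% of the stretch's listed reads in Lsh-/- and 16.6% in Lsh+/+, against 18.6% and 13.9% in the whole libraries. In windows without the mark the stretch held 1496 reads in Lsh-/- and 1325 in Lsh+/+, a ratio of 1.13 (1.05 to 1.22) before scaling. Such windows over the genome held a mean of 1.36 reads in each library. The ratio of total reads, which include those of marked windows, was 1.13. Copy number was not measured.

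Marked windows lay in 2 dense blocks with a long gap of few reads between them. A 2 kb window counted as marked from 10 reads on, if these also made up 5 times the mean background, which was 1.36 reads in each library. Of 1300 such windows, 108 were marked in Lsh-/- and 80 in Lsh+/+, which is 8.31% and 6.15%, against a background over all windows of 1.87% and 1.73%. The libraries shared 75 of them, 33 were marked in Lsh-/- alone and 5 in Lsh+/+ alone. That is 30.6% of the windows marked in Lsh-/- and 6.25% of those marked in Lsh+/+, against 24.5% and 18.4% over the genome. The plot of reads along the stretch shows the blocks at both ends, each with histone starts.

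**Figure D1:**
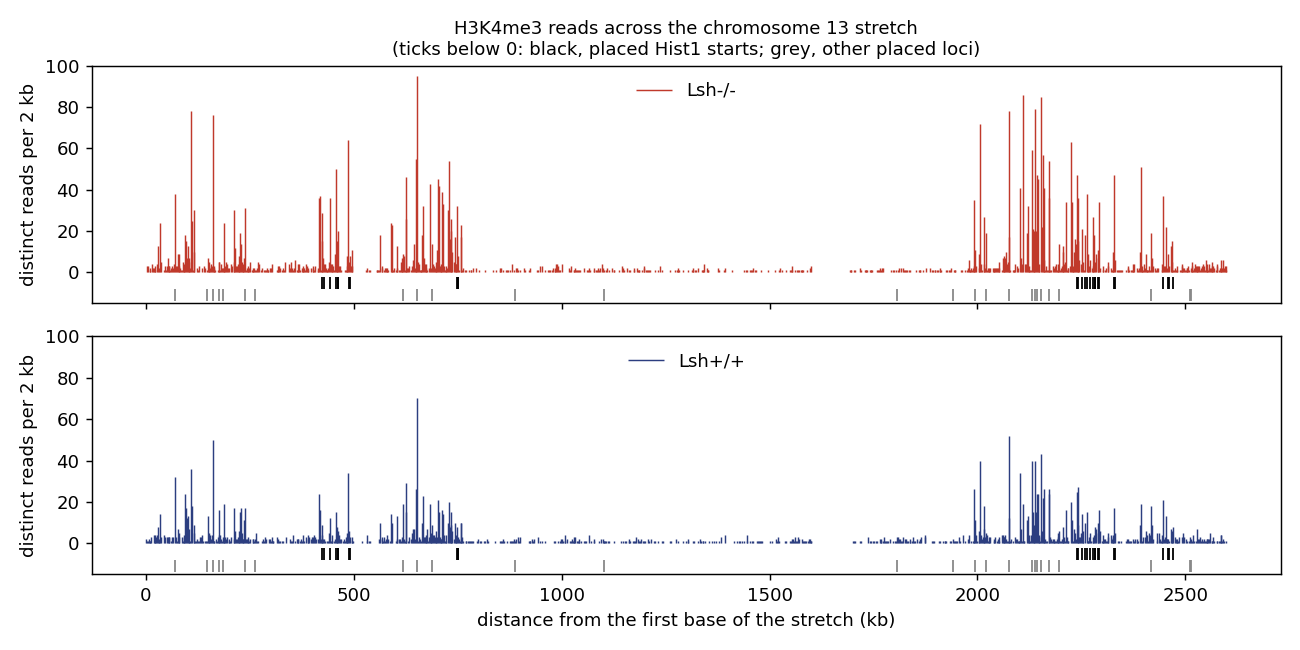
Distinct H3K4me3 reads in 2 kb windows (vertical axis) along the stretch, by distance from its first base in kb (horizontal axis), for the Lsh-/- library above and the Lsh+/+ library below, 1 library each. Black ticks are placed Hist1 starts and grey ticks other placed loci; reads gather in blocks near both ends, 108 windows were marked in Lsh-/- and 80 in Lsh+/+, and the middle holds few reads.

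Ratios of Lsh-/- to Lsh+/+ were scaled so that the median ratio over all windows marked in both libraries was 1. This scale divides by 1.42, and scaling by total reads (1.13) raises every ratio by 0.33 on the log2 scale. A call of higher or lower needed a 2-fold ratio, a 95% interval (exact conditional, by Clopper-Pearson) that left out 1, and 20 reads over both libraries. Of 99 windows of the stretch with enough reads, 12 were called higher (12.1%), against 3.45% of all windows tested, and 2 were called lower (2.02%), against 5.8% of all windows tested. Over the 75 windows marked in both libraries the median log2 ratio was 0.31, with 54 above 0 (72.0%). It was 0.08 over the rest of chromosome 13, with 57.2% above 0, and 0.00 over the genome, with 49.9% above 0. Windows were also split by their reads. At 40 to 60 reads the median was 0.58 (21 windows) in the stretch and 0.03 in the rest of the genome, at 60 to 100 reads 0.41 (23 windows) and 0.06, and at 100 to 200 reads 0.41 (8 windows) and 0.07. At 20 to 40 reads it was 0.08 (23 windows) in the stretch and -0.35 in the rest.

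The 15 histone starts placed by at least 2 reads were joined where their 1 kb flanks overlapped, which gave 13 loci. In each library 12 of the 15 starts were marked. Counted by locus, 11 of 13 were marked in Lsh-/- and 11 in Lsh+/+. They held 403 reads in Lsh-/- and 205 in Lsh+/+, a scaled ratio of 1.38 (1.17 to 1.64). Of the 11 loci with enough reads 1 was called higher (9.09%, against 2.16% of all placed loci) and 0 lower (against 3.78%). With no genotype test there is no p behind either count. All 11 loci held 20 to 100 reads over both libraries, and of such loci outside the stretch 4.88% were called higher and 8.94% lower. The median log2 ratio over the 11 marked loci was 0.73, a ratio of 1.66, with 9 of 11 above 0. The same median was 0.04 over 8381 marked loci of the genome, with 54.2% above 0, and -0.02 over the 3178 loci outside the stretch with 20 to 100 reads.

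Of the H4 promoters, 4 loci were placed by at least 2 reads. H4c12, at a start of chr13:21758018 on the minus strand, had 37 reads within 1 kb in Lsh-/- and 12 in Lsh+/+, a ratio of 2.17 (1.11 to 4.57), and was the locus called higher. With reads without a mismatch, or with the further reads described below alone, it was not called. H4c11 (chr13:21742499, plus strand) had 39 reads in Lsh-/- and 15 in Lsh+/+, a ratio of 1.83 (0.99 to 3.57). These neighbours lie in the same block, and both had over 2 times as many reads in Lsh-/- before scaling. H4c8 (chr13:23538509, plus strand), at the other end of the stretch, had 54 reads in Lsh-/- and 22 in Lsh+/+, a ratio of 1.73 (1.03 to 2.98). H4c6 had 17 reads in Lsh-/- and 10 in Lsh+/+, a ratio of 1.20 (0.52 to 2.92). The intervals of the 4 H4 loci overlap each other.

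Of the linker histone genes, 5 starts were placed, all by at least 2 reads. H1f5 (chr13:21788090, minus strand) had 45 reads in Lsh-/- and 28 in Lsh+/+, a ratio of 1.13 (0.69 to 1.88). H1f3 had 26 in Lsh-/- and 11 in Lsh+/+, a ratio of 1.66 (0.79 to 3.73). H1f2 (chr13:23746272, plus strand) had 21 in Lsh-/- and 17 in Lsh+/+, a ratio of 0.87 (0.44 to 1.75). H1f2 had the lowest ratio of the 11 histone loci that were placed by at least 2 reads and held enough reads for a call. H1f1 had 1 read in Lsh-/- and 8 in Lsh+/+, too few in all for a call, and was marked in neither library. H1f4 shares its window with the upstream start of H2bc6, and that joint locus had 60 reads in Lsh-/- and 23 in Lsh+/+, a ratio of 1.84 (1.12 to 3.11). Counted apart, with reads shared, the H1f4 start had 31 in Lsh-/- and 16 in Lsh+/+, a ratio of 1.36 (0.72 to 2.67), and the H2bc6 start 50 and 17, a ratio of 2.07 (1.17 to 3.83). The joint locus was the histone locus with most reads in Lsh-/-, and its interval excluded 1 at a ratio short of 2-fold.

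Among the other H2A, H2B and H3 promoters, H2ac15 (chr13:21761377, minus strand) had 25 reads in Lsh-/- and 10 in Lsh+/+, a ratio of 1.76 (0.82 to 4.10), although all 3 reads that placed it came from Lsh+/+. The start of H2bc6 printed above (chr13:23593435) had 27 in Lsh-/- and 16 in Lsh+/+, a ratio of 1.19 (0.62 to 2.36). H3c8 (chr13:23542883, plus strand) had 42 in Lsh-/- and 30 in Lsh+/+, a ratio of 0.99 (0.60 to 1.63). H3c8 had the most Lsh+/+ reads of any histone locus. The divergent pair H2bc7 and H2ac7, whose starts lie 174 bases apart, had 9 reads in Lsh-/- and 3 in Lsh+/+ and was marked in neither library.

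**Figure D2:**
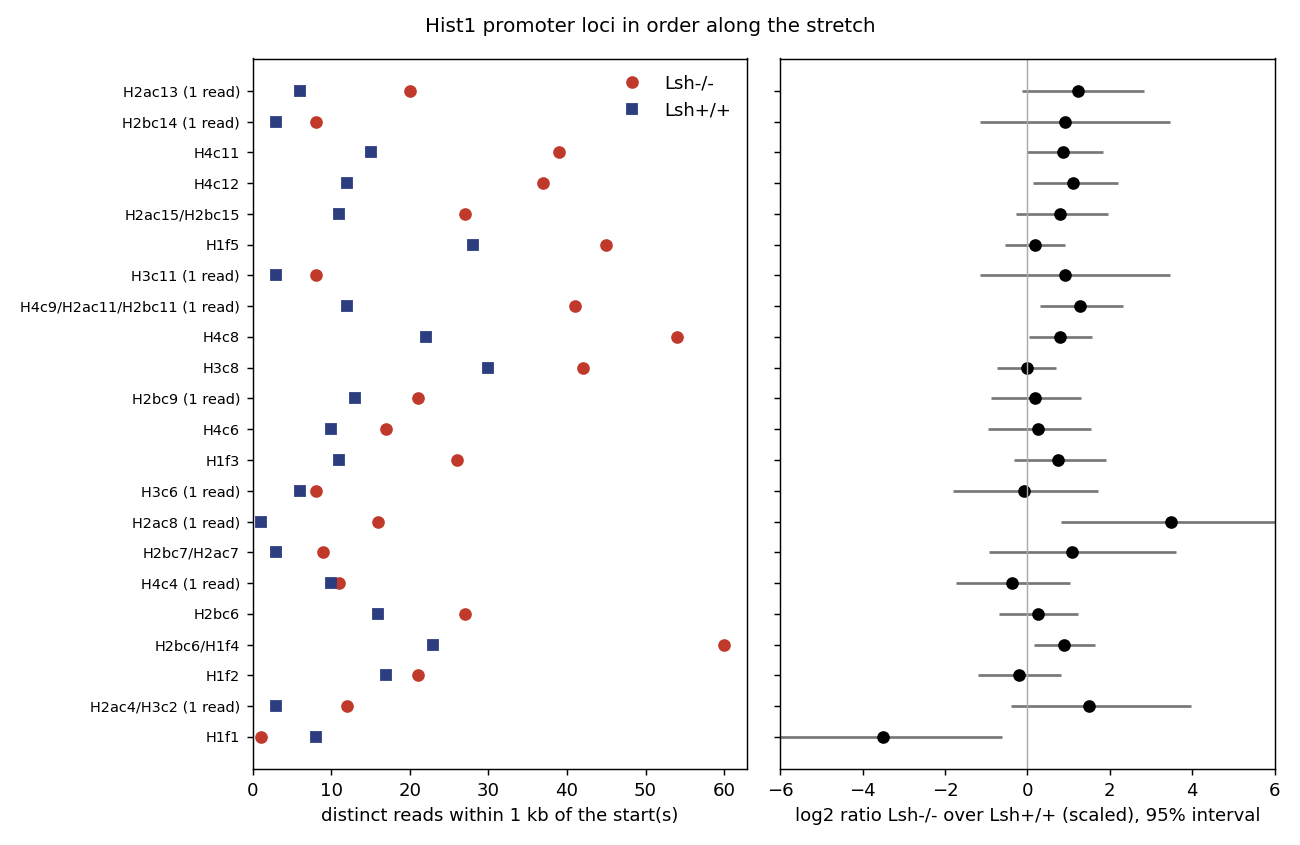
Distinct reads within 1 kb of each Hist1 locus (left; red circles Lsh-/-, blue squares Lsh+/+) and the scaled log2 ratio of Lsh-/- over Lsh+/+ with its 95% counting interval (right; bars leaving the frame run on beyond it), in order along the stretch. The label "1 read" means every start of the locus was placed by 1 read; H4c12, with 37 reads in Lsh-/- and 12 in Lsh+/+, lies above 0 with its whole interval, and H1f1, with 1 and 8, lies below 0.

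Including the 13 starts placed by 1 read gave 22 histone loci, of which 17 were marked in Lsh-/- and 13 in Lsh+/+. Starts placed by 1 read were marked in 9 of 13 cases in Lsh-/- and 3 of 13 in Lsh+/+, against 20.3% and 19.6% of the 5665 such starts over the genome. A second locus was then called higher, so that 2 of 15 with enough reads were (against 2.25% of all loci placed this way) and 0 lower (against 4.01%). It joins H4c9, H2ac11 and H2bc11, with 41 reads in Lsh-/- and 12 in Lsh+/+, a ratio of 2.40 (1.24 to 5.03). All 15 loci held 20 to 100 reads, and of such loci placed this way outside the stretch 4.91% were called higher and 9.18% lower. H2ac13 had 20 reads in Lsh-/- and 6 in Lsh+/+, a ratio of 2.35 (0.91 to 7.14). H2ac8 had 16 reads in Lsh-/- and 1 in Lsh+/+, which together fall short of the 20 reads a call needs. H4c4 had 11 in Lsh-/- and 10 in Lsh+/+, the lowest ratio of the loci placed by 1 read at 0.77 (0.30 to 2.03), and H2bc9 had 21 and 13. The median log2 ratio over the 17 marked loci was 0.79, with 14 above 0.

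By histone class, over the 28 placed starts, H2A stood at the high end and H1 at the low end. Reads within 1 kb summed to 93 in Lsh-/- and 24 in Lsh+/+ at 6 H2A starts, with a median scaled ratio of 2.64. At 7 H2B starts they summed to 160 in Lsh-/- and 67 in Lsh+/+ (median ratio 1.88), and at 6 H4 starts to 183 in Lsh-/- and 76 in Lsh+/+ (1.78). At 4 H3 starts they summed to 69 in Lsh-/- and 42 in Lsh+/+ (1.43), and at 5 H1 starts to 124 in Lsh-/- and 80 in Lsh+/+ (1.13). Starts of neighbouring genes share reads here, so the classes are not independent of each other: H2A and H2B starts lie in divergent pairs, 164 bases apart for H2ac15 and H2bc15 and 249 for H2ac11 and H2bc11. Only 2 of the 6 H2A starts were placed by at least 2 reads. H2ac11, H2ac8, H2ac7 and H2ac4 were placed by Lsh-/- reads alone, and H2ac13 and H2ac15 by Lsh+/+ reads alone. A start placed by reads of 1 library can favour that library, so the H2A median depends in part on the placing. The difference between classes was not tested.

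The other promoters of the stretch lay closer to the genome's median. Of 19 such loci, 15 were marked in Lsh-/- and 14 in Lsh+/+, and their median log2 ratio was 0.09, with sums of 812 reads in Lsh-/- and 519 in Lsh+/+ and a ratio of 1.10 (0.98 to 1.23). Among the 18 that held enough reads for a call, 0 came out higher (against 2.16% of all placed loci) and 3 lower (16.7%, against 3.78%). Of the 11 with 20 to 100 reads, 27.3% came out lower, against 8.94% of such loci outside the stretch. The 3 lower ones were Pgbd1, with 6 reads in Lsh-/- and 14 in Lsh+/+, Nkapl, with 8 and 15, and Gm40831, with 9 and 19. Each was marked in Lsh+/+ alone, with ratios of 0.30 for Pgbd1, 0.38 for Nkapl and 0.33 for Gm40831. Zfp184, a zinc finger gene, had 95 reads in Lsh-/- and 70 in Lsh+/+, a ratio of 0.96 (0.69 to 1.32). Zfp322a, another zinc finger gene, had 91 in Lsh-/- and 62 in Lsh+/+ (1.03), and Zscan26, a zinc finger gene with a SCAN domain, had 76 and 50 (1.07). Abt1, an activator of basal transcription, had 67 and 42 (1.12). These 4 promoters, each with over 100 reads in both libraries together, had ratios of 0.96 to 1.12. Other loci with over 100 reads stood above them. The non-coding or predicted genes C230035I16Rik and Gm46404 had 84 in Lsh-/- and 40 in Lsh+/+ (1.48), and 104 and 42 (1.74, 1.21 to 2.56). Gm52036 had 68 and 38 (1.26, 0.83 to 1.93). With fewer reads, Gm40833 had 25 in Lsh-/- and 9 in Lsh+/+ (1.95, 0.88 to 4.76), and 4930557F10Rik had 19 and 5 (2.67, 0.97 to 9.16). That of 4930557F10Rik was the highest ratio of any locus of the stretch, histone or other, placed by at least 2 reads and with enough reads for a call. Of the 18 other loci marked in either library, 11 had a ratio above 1.

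**Figure D3:**
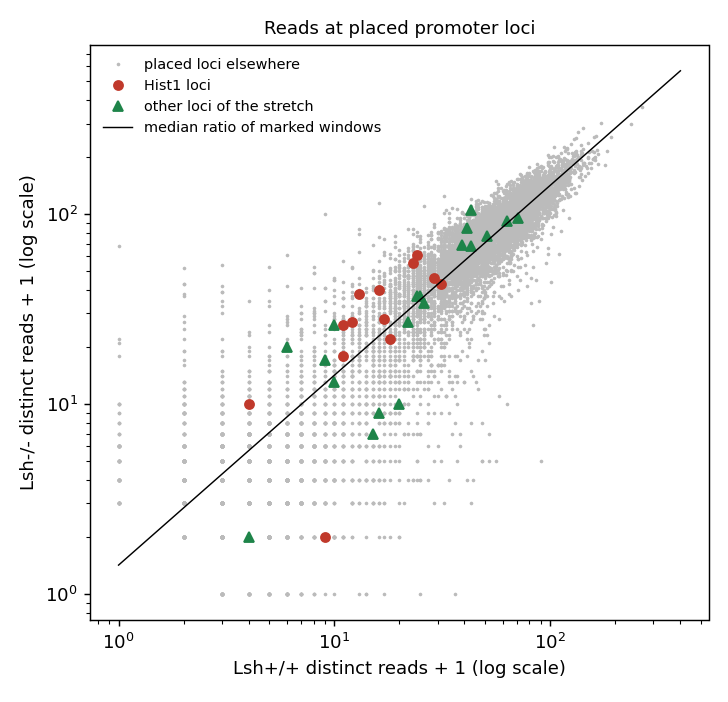
Distinct reads + 1 within 1 kb of placed promoter loci on log scales, Lsh-/- on the vertical and Lsh+/+ on the horizontal axis, 1 library each, for 13 Hist1 loci (red), 19 other loci of the stretch (green) and all placed loci elsewhere (grey). The line is the median ratio of windows marked in both libraries; 9 of the 11 marked Hist1 loci lie above it.

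Windows were also sorted by what they touch. Over all 45 windows that touched the flanks of a placed histone start, marked or not, there were 730 reads in Lsh-/- and 351 in Lsh+/+, a ratio of 1.46 (1.29 to 1.67). The 51 windows at other placed starts held 976 in Lsh-/- and 674 in Lsh+/+, a ratio of 1.02 (0.92 to 1.13). The difference between these kinds was not tested. Counted by locus, their intervals overlapped with starts placed by at least 2 reads (1.17 to 1.64 and 0.98 to 1.23). With starts placed by 1 read included, as for these windows, they were 1.27 to 1.71 and 0.97 to 1.20 and did not overlap. Away from placed starts most windows held background alone. There, 45 windows were marked in both libraries, with 1557 reads in Lsh-/- and 807 in Lsh+/+, a ratio of 1.36 (1.25 to 1.48). Their median log2 ratio was 0.34, with 36 of 45 above 0. By the same filter, 12 windows at histone starts had a ratio of 1.43 (1.21 to 1.69) and a median log2 ratio of 0.40. The 18 at other placed starts had 1.09 (0.97 to 1.21) and -0.01. Whether the marked windows away from placed starts hold histone genes that were not placed was not tested. The 12 windows called higher were 6 at histone starts, 1 at another start and 5 away from placed starts.

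The widest gap in reads away from a placed start was at chr13:23408001-23410000, with 86 reads in Lsh-/- and 19 in Lsh+/+, a ratio of 3.19 (1.92 to 5.55). It lay 22330 bases from the nearest placed start, and its gene is not named here. Adjoining windows from chr13:23524001 held 63 and 34 reads in Lsh-/- against 20 and 11 in Lsh+/+, ratios of 2.22 and 2.18. Next to the H4c12 start, the window at chr13:21756001 held 50 reads in Lsh-/- and 15 in Lsh+/+, a ratio of 2.35 (1.30 lower bound). Around the start of H2ac8, the window at chr13:23578001 held 27 reads in Lsh-/- and 3 in Lsh+/+, a ratio of 6.33 with a lower bound of 1.95. This was the largest ratio among the 12. The 2 windows called lower, at chr13:21474001 with 5 reads in Lsh-/- and 16 in Lsh+/+ and at chr13:21918001 with 9 and 19, touched starts of no histone gene.

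Between named starts, the blocks differed in how many reads they held per length and in their ratio. These intervals were drawn after their values were seen and are a description. From H2ac13 to H3c11, 69.0 kb with 10 Hist1 genes in RefSeq, there were 446 reads per 100 kb in Lsh-/- and 201 in Lsh+/+, a ratio of 1.56 (1.27 to 1.92). From H3c11 to H4c9, where RefSeq lists 10 more Hist1 genes, with 0 starts placed, and 31 tRNA genes, there were 370 in Lsh-/- and 222 in Lsh+/+, a ratio of 1.17 (1.05 to 1.30). This interval also held an 18 kb run of windows without a read. From Gm40832 to H4c8, where RefSeq lists 42 tRNA genes and 0 Hist1 genes, there were 569 reads per 100 kb in Lsh-/- and 314 in Lsh+/+, the densest of the 7 intervals, with a ratio of 1.27 (1.16 to 1.39). Positions of tRNA genes were not matched to windows. From H4c8 to H1f1, where RefSeq lists 29 Hist1 genes, there were 296 in Lsh-/- and 187 in Lsh+/+, a ratio of 1.12 (0.99 to 1.26).

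The middle of the stretch, from H2bc11 to Gm40832, held few reads in both libraries. RefSeq lists 36 vomeronasal receptor genes (Vmn1r) there, which are expressed in sensory neurons of the vomeronasal organ. Over 1242 kb it held 379 reads in Lsh-/- and 388 in Lsh+/+, or 30.5 and 31.3 per 100 kb. The ratio was 0.98 before scaling, 0.69 by the scale of marked windows and 0.87 by total reads. Windows without the mark over the genome held a mean of 1.36 reads in each library. Scaling therefore lowers the ratio of background alone, and the values of 0.69 and 0.87 do not show less mark in Lsh-/-. In this middle part, 2 of 620 windows were marked in Lsh-/- and 2 in Lsh+/+. A run of 90 kb held no read in either library. At the low end of the coordinates, from Zscan12 to Zkscan8 among zinc finger genes, there were 371 reads per 100 kb in Lsh-/- and 286 in Lsh+/+, a ratio of 0.91 (0.81 to 1.03).

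**Figure D4:**
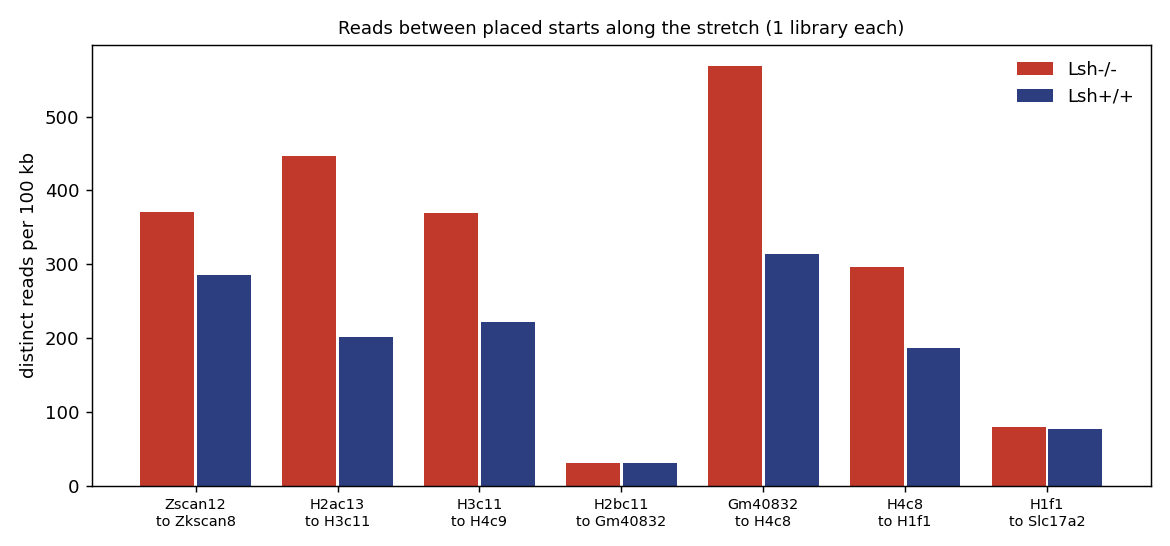
Distinct H3K4me3 reads per 100 kb (vertical axis) in 7 intervals between placed starts, in order along the stretch, for Lsh-/- (red, left bar) and Lsh+/+ (blue, right bar), 1 library each. The interval from Gm40832 to H4c8 holds most, 569 in Lsh-/- and 314 in Lsh+/+, and the interval from H2bc11 to Gm40832 fewest, 30.5 and 31.3.

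Marked regions, built from the deposited 200 bp counts, covered more of the stretch in Lsh-/-. There were 54 regions over 84.4 kb in Lsh-/- and 37 over 41.0 kb in Lsh+/+, with 54.8 and 43.2 reads per kb. Their median width was 1400 bp in Lsh-/- and 1000 bp in Lsh+/+, against 1400 and 1200 bp over the genome, and 800 bp in both libraries of the stretch when gaps of up to 200 bp were joined. Of the regions, 33 (61.1%) in Lsh-/- overlapped one of Lsh+/+, and 35 (94.6%) in Lsh+/+ overlapped one of Lsh-/-. Over the genome these shares were 91.0% in Lsh-/- and 95.3% in Lsh+/+. The widest region of the stretch, 8200 bp in Lsh-/- at chr13:23437401-23445600, runs over the starts of C230035I16Rik and Gm40833 and holds 347 reads. In Lsh+/+ the same place was cut into 3 regions of 1600, 600 and 800 bp. The regions over the H4c8 start (83 reads in Lsh-/-) and over the upstream H2bc6 start (62 reads in Lsh-/-) had no counterpart in Lsh+/+ under the same minimum. The minimum is a fixed number of reads, and the window lists behind it hold 4550293 reads in Lsh-/- and 4070117 in Lsh+/+.

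Around histone starts the listed reads lay farther from the start than at other genes. A short read from inside a histone gene often has several matching places. How this bears on the counts near histone starts was not tested, so the position of the mark itself cannot be told from them. Over the 28 placed starts, 62.4% of reads within 1 kb lay downstream in Lsh-/- (58.5 to 66.2) and 60.6% in Lsh+/+ (54.7 to 66.2), close to the 63.9% and 65.0% at 11296 other marked starts. Near the start itself the libraries held like numbers of reads before scaling, which divides Lsh-/- counts by 1.42. By that scale the part near the start was lower in Lsh-/-, and the parts farther out were higher. From 200 bases before the start to 300 after it there were 60 reads in Lsh-/- and 57 in Lsh+/+, from 300 to 1000 after it 348 in Lsh-/- and 141 in Lsh+/+, and from 1000 to 200 before it 220 in Lsh-/- and 91 in Lsh+/+. At the 15 starts placed by at least 2 reads these parts held 44, 241 and 145 reads in Lsh-/-, and 44, 100 and 72 in Lsh+/+. As shares, the part around the start held 9.55% of reads in Lsh-/- and 19.7% in Lsh+/+, against 29.6% and 31.3% at other marked starts. The part from 300 to 1000 bases after it held 55.4% in Lsh-/- and 48.8% in Lsh+/+, against 41.0% and 40.6%. The part from 1000 to 200 bases before it held 35.0% in Lsh-/- and 31.5% in Lsh+/+, against 29.4% and 28.1%. Over the 28 starts the fullest 50 bp bin began 500 bases after the start in Lsh-/- and 450 in Lsh+/+, against 100 in both at other starts. At the 15 starts placed by at least 2 reads it began at -350, before the start, in both, with 22 reads in Lsh-/- and 13 in Lsh+/+, so the fullest bin depended on which starts were counted. H1 starts had 87.9% of reads downstream in Lsh-/- and 78.8% in Lsh+/+, while H3 starts had 34.8% and 38.1%.

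**Figure D5:**
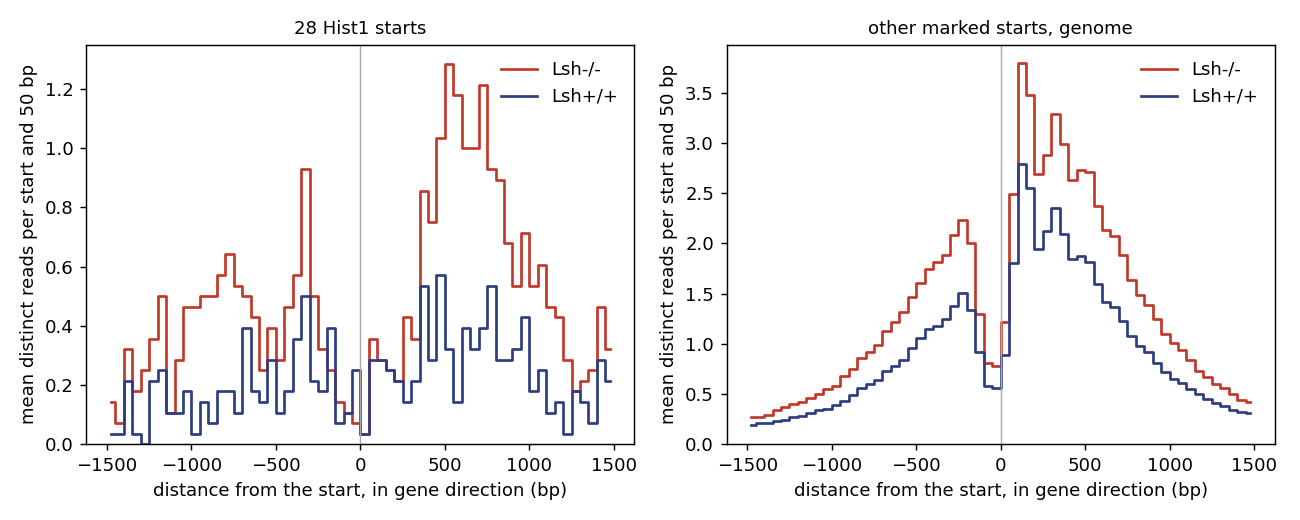
Mean distinct reads per start in bins of 50 bp (vertical axes, with their own scales) by distance from the start in gene direction (horizontal axis, bp), for 28 Hist1 starts (left) and 11296 other marked starts (right); red is Lsh-/- and blue Lsh+/+, 1 library each. Hist1 reads lie on both sides away from the start, with 9.55% of Lsh-/- and 19.7% of Lsh+/+ reads from 200 bases before it to 300 after it, against 29.6% and 31.3% at other starts.

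The deposited window counts exceed the distinct reads of the read lists, by 3159 in Lsh-/- and 2049 in Lsh+/+ inside the stretch. The labels do not say where these further reads come from. Some may be the repeated reads of the lists, although 7305 windows of the genome in Lsh-/- and 3972 in Lsh+/+ hold fewer reads than the lists with repeats kept. They belong to the same pair of libraries and are no replicate. At the 11 marked histone loci they gave 239 further reads in Lsh-/- and 132 in Lsh+/+, a ratio of 1.26 (1.02 to 1.58), and the median ratio was 1.63. In 8 of 11 loci the further reads lay on the same side of 1 as the listed reads. H4c12 had 17 further reads in Lsh-/- and 7 in Lsh+/+, and H4c8 had 46 and 17, both above 1 after scaling. H1f5 had 24 in each library and lay below 1, on the other side from its listed reads. At the window chr13:23408001-23410000 the further reads were 59 in Lsh-/- and 9 in Lsh+/+, a ratio of 4.58. For the window around H2ac8 they were 10 and 5, a ratio of 1.40, far under that of its listed reads. At other loci of the stretch the further reads gave 654 in Lsh-/- and 387 in Lsh+/+, a ratio of 1.18 (1.04 to 1.34).

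Genes elsewhere in the genome whose products make and process histone mRNAs lay near the genome's median. Of 33 on a list of transcription, 3′ end and chaperone factors, 21 had a start placed by at least 2 reads, and all 21 were marked in both libraries. Of these 0 were called higher and 1 lower, against 2.16% and 3.78% of all placed loci, with a median log2 ratio of 0.02 and 11 of 21 above 0. Npat, the coactivator of histone genes, had 134 reads in Lsh-/- and 91 in Lsh+/+, a ratio of 1.04 (0.79 to 1.37). Slbp, which binds the stem-loop of histone mRNAs, had 90 in Lsh-/- and 53 in Lsh+/+, a ratio of 1.19 (0.84 to 1.71). Lsm11, part of the particle that recognises the 3′ end, had 50 and 39 (0.90). Chaf1b, a subunit of the CAF-1 chaperone that deposits new histones on copied DNA, had 46 reads in Lsh-/- and 69 in Lsh+/+, a ratio of 0.47 (0.32 to 0.69), and was the gene called lower. Cpsf3, the nuclease that cuts histone pre-mRNA, had 133 in Lsh-/- and 61 in Lsh+/+, a ratio of 1.53 (1.12 to 2.11), short of the 2-fold a call needs.

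Histone genes outside the stretch were also measured. Of 9 genes of replication-independent variants 5 were placed, all marked in both libraries. With 0 called higher and 0 lower, against 2.16% and 3.78% of all placed loci, their median log2 ratio was 0.01. H2az1, which encodes the variant H2A.Z, had 63 reads in Lsh-/- and 43 in Lsh+/+, a ratio of 1.03. Of 14 Hist2, Hist3 and Hist4 genes 5 were placed, 5 marked in Lsh-/- and 3 in Lsh+/+, with a median log2 ratio of 0.41. Among them H2bu2 (Hist3h2ba) had 27 reads in Lsh-/- and 6 in Lsh+/+, a ratio of 3.17 (1.28 to 9.38). It was the 1 gene of the 5 called higher (against 2.16% of all placed loci), and 0 were lower (against 3.78%). The other Hist genes had ratios of 0.85 to 1.41.

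The libraries were checked against their labels. Of 14 fibroblast markers 6 were placed, 5 of them marked in Lsh-/- and 6 in Lsh+/+. Of the 5 with enough reads for a call 0 were called higher and 1 lower, against 2.16% and 3.78% of all placed loci. Vim, an intermediate filament of fibroblasts, had 201 reads in Lsh-/- and 126 in Lsh+/+, a ratio of 1.12. Fbn1, a protein of extracellular fibrils, had 44 in Lsh-/- and 63 in Lsh+/+, a ratio of 0.49 (0.33 to 0.73), and was the one called lower. S100a4 had 2 in Lsh-/- and 15 in Lsh+/+, too few for a call, and was marked in Lsh+/+ alone. The other 3, Col3a1, Prrx1 and Twist1, had ratios of 1.61, 1.68 and 0.89. No marker on the lists for pluripotent cells, germ line or blood was placed, which says only that too few reads matched their promoters. Of 6 epithelial markers Krt18 was placed, with 51 reads in Lsh-/- and 1 in Lsh+/+, and was called higher. By the calling rule Fbn1, a fibroblast marker, and Krt18 thus differed between the lines. Their part in the histone values was not tested. The promoter of Hells, the targeted gene, had 116 reads in Lsh-/- and 84 in Lsh+/+, a ratio of 0.97. The labels do not say which part of the gene is deleted, so a mark at its start checks nothing.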

How the data were processed

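H3K4me3 was measured in 1 Lsh-/- and 1 Lsh+/+ library. Per the labels, the authors deposited for each a list of aligned 25-base reads and read counts per 200 bp window. The build is mm8, per the submitters' processing notes. The aligner and the counting rule are not given in the sources used here. The deposited alignment score of a read ran from 4 to 53 in both libraries. The deposited window counts were not normalised. In 0 windows did they fall below counts of the distinct reads of the lists, made with a shift of 100 bp.

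Reads sharing a deposited position and strand were counted once, 75 bp along from the 5′ end. The Lsh-/- library listed 3428628 reads (lane 3) and the Lsh+/+ library 2869399 (lane 2). Regions joined deposited windows of at least 6 reads across up to 1 kb and were kept with at least 20 reads. RefSeq (GRCm38.p6) gave promoters, names and the genes between neighbours. The calling rule and the interval of a ratio were tested on simulated counts. Named histone loci were the 6 with most reads, the 6 highest and 6 lowest ratios and every called one, plus H1f6, H2ac1 and H2bc1. Of the other loci of the stretch, the 6 with most reads and every called one were named by rule. Other genes and windows were named after their values were seen. The stretch, with its windows and reads, was chosen by position. The gene lists and the genes on them were chosen with earlier results of these data known. A planned reading of the coding class of reads was not run, since no protein table was used here. The scripts ran on Python 3.11.15 with scipy 1.17.1, pandas 2.3.3 and numpy 2.4.6, and figures on matplotlib 3.10.9.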

Additional observations from a re-analysis of the deposited data

How the results depend on the processing

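Of 101 alternative values, 84 stayed near the main value and 17 moved. A change of direction was looked for in the median log2 ratio alone, and 0 of its alternatives reversed. No paired analysis was possible because each line had 1 library and no replicate numbers, and for the same reason no replicate could be left out. Scaling by total reads called 5 histone promoters (45.5%, against 5.63% of all placed loci) and 25 windows (25.3%, against 8.68% of all windows tested) higher and gave a median log2 ratio of 1.07; over all alternatives that median ran from 0.49 to 1.07. The 1 histone promoter called higher (H4c12) became 2 with repeated reads kept, 2 with the deposited window counts, 2 with starts placed by 1 read, 0 with reads without a mismatch and 0 with the further reads alone, an alternative chosen after seeing the data. At a minimum of 40 reads, 7 windows were called higher and 0 lower. Windows called lower came to 4 with repeated reads kept and 4 with the grid moved by 1 kb. Within 500 bp of the start, 9 histone promoters were marked in Lsh-/- and 5 in Lsh+/+. With starts placed by 1 read included, 21 were marked in Lsh-/- and 15 in Lsh+/+. Regions had a median width of 900 bp in Lsh-/- and 400 bp in Lsh+/+ from windows of at least 10 reads, and 800 bp in both with a joining gap of 200 bp. Most histone loci held 20 to 100 reads in both libraries together, so many 2-fold differences lay within counting error.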
